A study of Mus musculus with 4 samples.

Results

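The 7 genes described here act in the interferon response and in the sensing of nucleic acids: Dhx58, Zc3hav1, Ifit2, Adar, Trex1, Mre11a and G3bp1. They were taken by gene symbol from 2 deposited tables of mouse B16F10 cells, an established melanoma line, and make up 7 of the 3117 genes listed in either table. All 7 are listed in both tables, the first for transcription start sites (TSS, 3112 genes) and the second for transcription end sites (TES, 3030 genes). The cells were either B16F10 lacking Carm1, the coactivator-associated arginine methyltransferase (Carm1 KO), or parental B16F10 (control, genotype WT), and both kinds were of the same line. How the knockout was made, and whether the Carm1 KO cells are 1 clone, is not given in the sources used here. The assay was mammalian native elongating transcript sequencing (mNET-seq), which sequences the nascent RNA held by immunoprecipitated RNA polymerase II (Pol II). Each genotype has 1 library made with an antibody against Pol II phosphorylated at serine 2 of its carboxy-terminal domain (Ser2P) and 1 made with the antibody 8WG16, which was raised against that domain. In each, 3 sets of cells had been pooled after the nuclease step.

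For every gene the tables give a Ser2P ratio in Carm1 KO and in control cells. The divisor of this ratio is not named in any source used here, and the ratio measures neither expression nor the amount of Pol II. With 1 library per group there is no spread between replicates and no test. Each value describes these libraries, and a gene is called higher or lower when its ratio in Carm1 KO cells differs from that in control cells by at least 1.5-fold. Of all genes above 0 in both genotypes, 71.2% were called higher at the TSS and 66.7% at the TES, whereas 5.6% and 7.13% were called lower. The median change was 1.17 at the TSS and 0.85 at the TES on the scale of log2(Carm1 KO / control). The scaling between the libraries is not given, so this general rise could not be told apart from a difference in scale. The rank of a gene's change among all genes does not depend on such a scale and is given beside each value. Carm1 itself was not analysed here. Of 8 genes of the melanocyte lineage, 5 are listed at the TSS and 3 at the TES, but a ratio gives no level by which to check the cell type.

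Cells sense foreign or misplaced RNA through RIG-I-like receptors and DNA through cyclic GMP-AMP synthase (cGAS), and both routes lead to type I interferon. Interferon then induces a set of antiviral genes, while nucleases and RNA editing keep the cell's own nucleic acids from setting off the same routes. Phosphorylation of serine 2 marks elongating Pol II and is normally low near gene starts and high near gene ends, where it helps to couple transcription to 3′ end processing.

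The sequences shown first, beside the start values of Trex1 and Dhx58, lie at or near the ends of coding transcripts of other genes that end just upstream of them on the same strand. The first run lies in the last exon of Atrip and stops 1 base before the annotated end of its transcript Atrip-201, and the second closes the transcript Kat2a-201, which ends 475 bp before the Dhx58 start. Capitals mark the polyadenylation hexamers ATTAAA and AATAAA. Both are given 5′ to 3′ on the minus strand, the first from RefSeq and the second from GENCODE M21 (GRCm38).
Upstream of Trex1, chr9:109059748-109059777: ATTAAAactgcacttcctgctgagaacaca
End of Kat2a-201, chr11:100704746-100704775: agggaacAATAAAgctttttttttcccctg

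Promoter windows from RefSeq (GRCm38.p6), each from 250 bases before to 50 after an annotated start, were matched for 6 of the 7 genes (all but Dhx58), 10 windows in all. They were searched on both strands for the core of the interferon-stimulated response element, taken as 2 copies of GAAA with 2 bases between them, and for a form with 1 base between them. The first is in 3.44% of all 32851 windows of the mouse table and in 0 of the 10 windows of these genes. The form with 1 base is in 3.17% of all windows and in 1 of the 10, that of the downstream Adar start, where it begins at base 29 counted from that start. It is shown in capitals, on the plus strand.
Adar, downstream start, chr3:89730735-89730764: gccttttcaagGAAACGAAAgtgaactctg

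The upstream sequences of Ifit2 and G3bp1 are shown because these genes had changes in the lower part of the distribution at both ends, a choice made after the values were seen. They end at the base before the annotated gene and lie on the plus strand. Capitals mark CCAAT on either strand, a motif in 37.4% of all windows.
Ifit2 upstream, chr19:34550444-34550693: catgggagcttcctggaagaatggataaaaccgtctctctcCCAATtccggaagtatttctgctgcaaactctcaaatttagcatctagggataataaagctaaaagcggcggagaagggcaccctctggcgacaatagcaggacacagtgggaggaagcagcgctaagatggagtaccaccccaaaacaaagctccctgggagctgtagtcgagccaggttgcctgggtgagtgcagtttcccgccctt
G3bp1 upstream, chr11:55469502-55469684: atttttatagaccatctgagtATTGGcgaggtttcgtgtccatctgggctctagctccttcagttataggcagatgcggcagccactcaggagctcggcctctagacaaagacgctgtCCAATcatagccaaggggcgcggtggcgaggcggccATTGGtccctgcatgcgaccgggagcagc

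The first question was how the Ser2P ratio of these genes differed between Carm1 KO and control cells at either end. The RNA sensor gene Dhx58 and the DNA exonuclease gene Trex1 were higher in Carm1 KO cells at both ends, and Zc3hav1 and Adar were higher at the TES. G3bp1 was lower at both ends and Ifit2 changed by less than the threshold at either. Adar and Mre11a were listed at 0 at the TSS in Carm1 KO cells. By count, 2 of the 5 genes with a fold at the TSS were called higher, 1 was called lower and 2 lay between. At the TES 4 of 7 were called higher, 1 lower and 2 lay between. These counts are to be read against the background given above, in which most genes were higher. The median change of the genes was -0.16 at the TSS, against 1.17 for all genes, and 0.78 at the TES, against 0.85. Relative to the all-gene median, 0 of the 5 genes were called higher and 3 lower at the TSS (Ifit2, Zc3hav1 and G3bp1), where 28.6% of all genes were then higher and 28.8% lower. At the TES 2 of 7 were then called higher (Trex1 and Zc3hav1) and 2 lower (Ifit2 and G3bp1), against 11.6% of all genes higher and 22% lower.

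**Figure D1:**
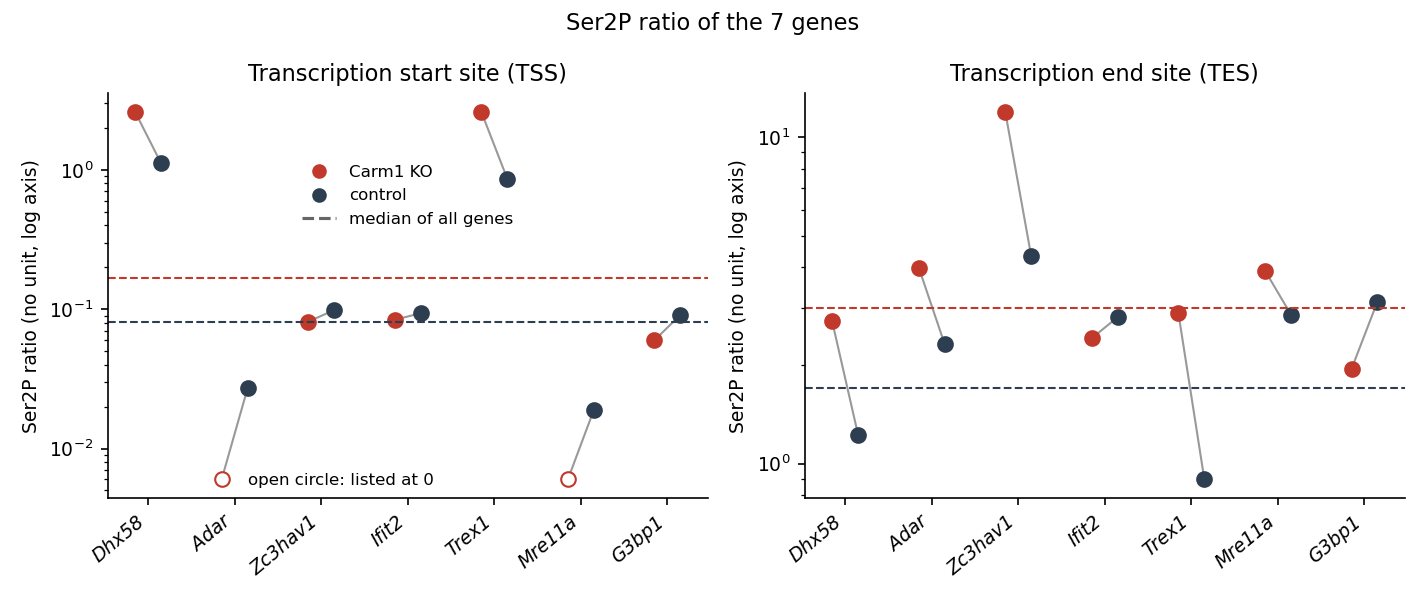
Ser2P ratio at the TSS (left) and TES (right) of the 7 genes in Carm1 KO cells (red) and control cells (dark), 1 value per gene and genotype, on log axes with no unit. Dashed lines are the medians of all listed genes, and open circles mark the 0 listed for Adar and Mre11a at the TSS in Carm1 KO cells, drawn at an arbitrary height; at the TSS Dhx58 and Trex1 lie far above the other 5 genes.

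Dhx58 (listed as DHX58) encodes LGP2, a RIG-I-like receptor that lacks the signalling domain and modulates the other receptors of that family. It spans chr11:100694884-100704271 on the minus strand. Its TSS ratio was 2.60 in Carm1 KO cells and 1.11 in control cells, a log2 change of 1.22. That change was at percentile 52.4 of the 2859 genes compared, so Dhx58 moved with the bulk of genes. The ratios themselves were far out, at percentile 95.1 in Carm1 KO cells and 97.0 in control cells. At the TES the ratio was 2.73 in Carm1 KO cells and 1.23 in control cells, a change of 1.16 at percentile 73.6 of 3016 genes.

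Zc3hav1 (listed as ZC3HAV1) encodes the zinc finger antiviral protein ZAP, which binds CpG-rich RNA and recruits the decay machinery, and is itself inducible by interferon. It spans chr6:38305286-38354603 on the minus strand. At its end the ratio was 12.0 in Carm1 KO cells and 4.32 in control cells, a log2 change of 1.47 at percentile 89.9. The Carm1 KO value was the 52nd highest of the 3030 TES values in these cells, whereas the control value ranked 472nd. At the TSS the ratio was 0.0813 in Carm1 KO cells and 0.0983 in control cells, a change of -0.27 at percentile 9.13. Zc3hav1 thus lay high among the changes at gene ends and low among those at gene starts.

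Ifit2 (listed as IFIT2) encodes an interferon-induced protein with tetratricopeptide repeats that binds RNA and limits translation. It spans chr19:34550694-34576419 on the plus strand. Its TSS ratio was 0.0839 in Carm1 KO cells and 0.0935 in control cells, a log2 change of -0.16 at percentile 11.2. The TES ratio was 2.42 in Carm1 KO cells and 2.81 in control cells, a change of -0.22 at percentile 11.8. Ifit2 therefore stayed within the threshold at both ends, while the median gene was higher at each.

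Adar (listed as ADAR) encodes the enzyme that converts adenosine to inosine in double-stranded RNA and so keeps the cell's own RNA from activating the sensor MDA5. It spans chr3:89715022-89753446 on the plus strand. At the TSS it was listed at 0 in Carm1 KO cells and at 0.0271 in control cells, and no fold was computed. The control value was low, at percentile 14.9, and 4 other genes had exactly the same value. Its TES ratio was 3.99 in Carm1 KO cells and 2.32 in control cells, a log2 change of 0.78 at percentile 45.0, close to the median of all genes. GENCODE M21 gives its coding transcripts 2 starts that lie 15726 bp apart, and which start the TSS value refers to is not given in the sources used here. The last 7252 bp of Adar overlap Chrnb2 on the other strand. Without the strand setting of the counting, reads of these genes cannot be told apart at the TES.

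Trex1 (listed as TREX1) encodes a 3′ exonuclease that degrades DNA in the cytosol before cGAS can bind it. It spans chr9:109057933-109059734 on the minus strand and is the shortest of the 7 genes, with 1802 bp. Its TSS ratio was 2.60 in Carm1 KO cells and 0.862 in control cells, a log2 change of 1.59 at percentile 65.4. The ratio at the TES was 2.89 in Carm1 KO cells and 0.895 in control cells. This change of 1.69, or 3.23-fold, was the largest of the 7 genes at the TES and ranked 148th of 3016. The control TES ratio was low, at percentile 15.2, and the Carm1 KO ratio was near the middle, at percentile 48.0. The annotated span of Atrip, on the same strand, ends at the same base as Trex1. TES signal of Trex1 can therefore not be told apart from signal of Atrip.

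Mre11a (listed as MRE11A) encodes the nuclease of the MRE11-RAD50-NBS1 complex, which processes DNA double-strand breaks and has also been reported to sense double-stranded DNA in the cytosol. It spans chr9:14784654-14837123 on the plus strand and is the longest of the 7 genes. At the TSS it was listed at 0 in Carm1 KO cells and at 0.0189 in control cells, at percentile 10.2. At the TES Mre11a had a ratio of 3.90 in Carm1 KO cells and 2.86 in control cells, a log2 change of 0.45 at percentile 28.1, short of the threshold. Its first 203 bp overlap the start of Ankrd49, which is transcribed the other way. Ankrd49 was not listed at 0 at the TSS: its ratio was 0.310 in Carm1 KO cells and 0.140 in control cells.

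G3bp1 (listed as G3BP1) encodes the RNA-binding protein that nucleates stress granules and has been reported to assist cGAS in binding DNA. It spans chr11:55469685-55504838 on the plus strand. Its TSS ratio was 0.0598 in Carm1 KO cells and 0.0910 in control cells, a log2 change of -0.61, the 153rd lowest of 2859. Its TES ratio was 1.95 in Carm1 KO cells and 3.14 in control cells, a change of -0.69, the 189th lowest of 3016. It was the only gene of the 7 called lower at either end, and passed the threshold narrowly, at 1.52-fold lower at the TSS and 1.61-fold lower at the TES. At a threshold of 2-fold neither end would be called. With a pseudocount (the 5th percentile of the values above 0) neither would be called at 1.5-fold either, at -0.47 at the TSS and -0.54 at the TES.

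**Figure D2:**
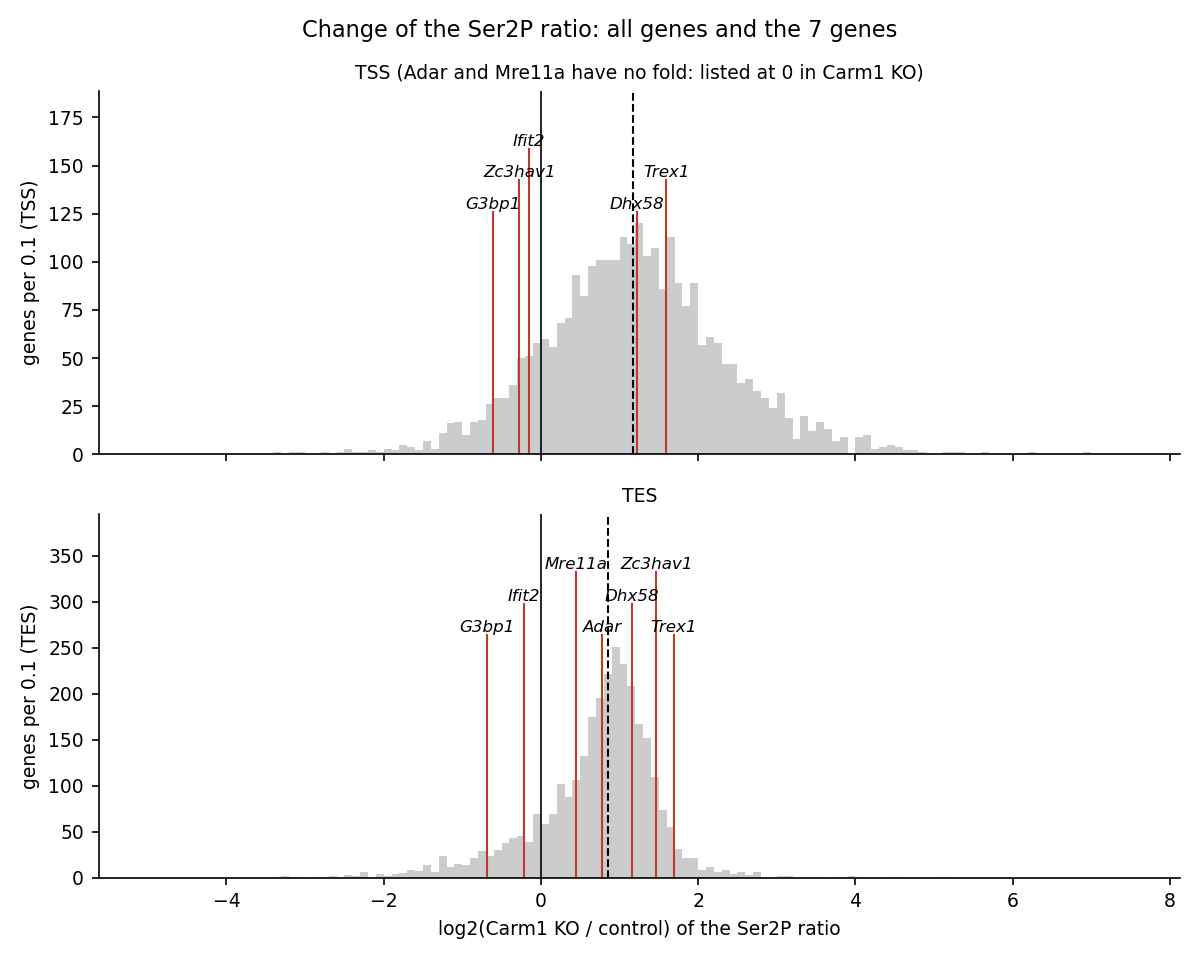
Histograms of the log2 change of the Ser2P ratio, Carm1 KO over control, for all genes above 0 in both genotypes at the TSS (2859 genes, top) and TES (3016 genes, bottom), in steps of 0.1. Red lines mark the genes described here, the solid line is 0 and the dashed line the median of all genes; G3bp1, Zc3hav1 and Ifit2 lie in the lower part of the TSS distribution, whereas Zc3hav1 and Trex1 lie in the upper part at the TES.

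Many ratios are coarse, which bears most on the low TSS values. At the TSS 1599 values above 0 in Carm1 KO cells and 1183 in control cells were shared with another gene. The Ifit2 TSS value was shared with 19 other genes in Carm1 KO cells and 11 in control cells, and that of Zc3hav1 with 6 in Carm1 KO cells and 2 in control cells. The TSS values of Dhx58 and Trex1 were shared with no other gene. At the TES, Mre11a shared its values with 1 other gene in each genotype and Trex1 its Carm1 KO value with 2. The other TES values of the 7 genes were unique. Read depth is unknown, so no interval could be put on any value.

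The 0 listed for Adar and Mre11a at the TSS in Carm1 KO cells is the value of 194 genes in all. Of the genes in both tables, 146 were at 0 at the TSS in Carm1 KO cells only. Their median control TSS ratio was 0.0376, against 0.0841 for all genes above 0 in control cells, so they were mostly low in control cells as well. Of the 143 of them with a change at the TES, 86 (60.1%) were called higher there, close to the 66.7% of all genes, and their median change was 0.79. Ratios below those of Adar and Mre11a in control cells were still listed in Carm1 KO cells: 92 genes lay above 0 but below the Adar control value, and 43 below that of Mre11a. These are other genes, and the divisor and read count of each gene are unknown. The counts therefore do not show whether so low a ratio could be seen at Adar or Mre11a in Carm1 KO cells. With unknown depth the size of either fall cannot be given.

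The second comparison set the end of each gene against its start. Over all genes the TES ratio was a median of 16.1 times the TSS ratio in Carm1 KO cells and 20.7 times in control cells. For Ifit2 the TES ratio was 28.9 times the TSS ratio in Carm1 KO cells and 30.1 times in control cells, and for G3bp1 it was 32.6 times in Carm1 KO cells and 34.5 times in control cells. In both genes the gradient was thus of about the same size in either genotype. Zc3hav1 became steeper, with a TES ratio 147 times the TSS ratio in Carm1 KO cells, against 43.9 times in control cells. That difference, 1.74 on the log2 scale, was at percentile 95.3, whereas the median gene had a difference of -0.40. The coding transcripts of Zc3hav1 have 2 annotated starts 330 bp apart and 3 ends that span 10382 bp, and no source used here says which start and end its ratios refer to. In control cells the TES ratio was 85.9 times the TSS ratio at Adar and 151 times at Mre11a.

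Dhx58 and Trex1 had almost no gradient. The TES ratio of Dhx58 was 1.05 times its TSS ratio in Carm1 KO cells and 1.10 times in control cells. For Trex1 it was 1.11 times in Carm1 KO cells and 1.04 times in control cells. In control cells these values were at percentile 3.94 and 3.25 of 2921 genes, and in Carm1 KO cells at 6.80 and 7.61 of 2839.

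**Figure D3:**
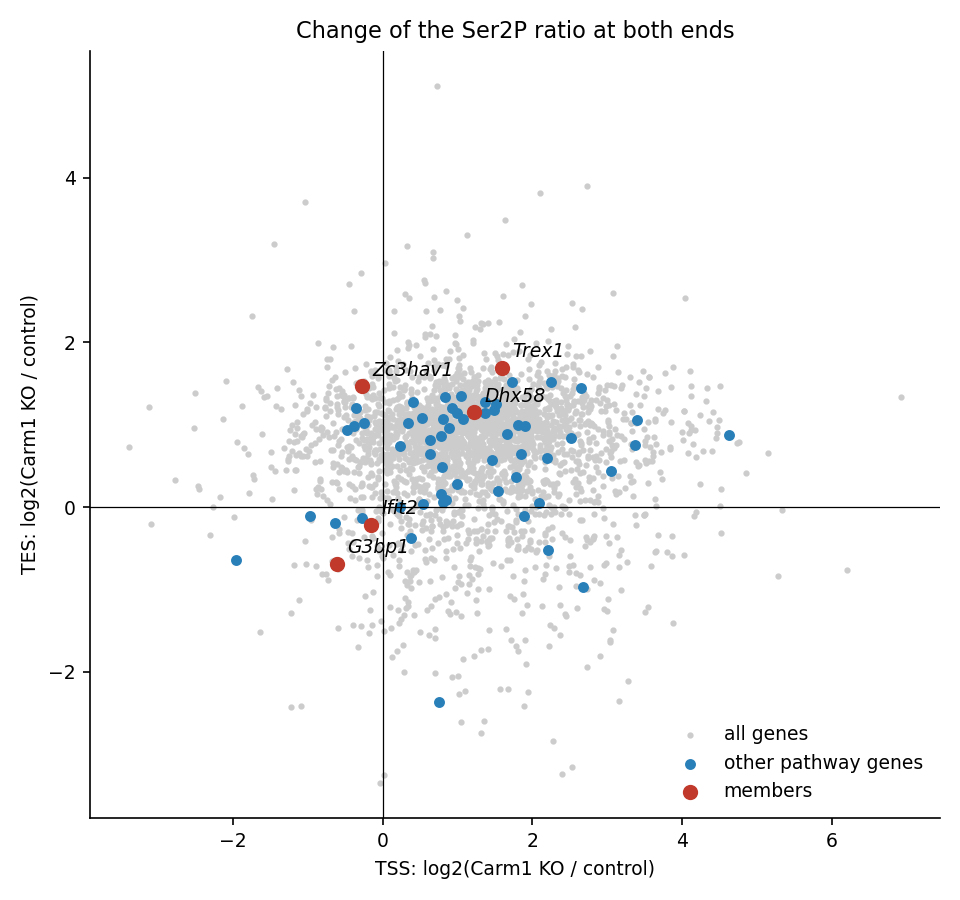
Log2 change of the Ser2P ratio, Carm1 KO over control, at the TSS (x axis) and TES (y axis) for the 2775 genes above 0 in all 4 values (grey), the other pathway genes (blue) and the 5 of the 7 genes that have both changes (red). Dhx58 and Trex1 lie in the upper right quadrant with most genes, Zc3hav1 in the upper left, and Ifit2 and G3bp1 in the lower left.

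Considering both ends together, 49.2% of the 2775 genes above 0 in all 4 values were called higher at both, as Dhx58 and Trex1 were. Zc3hav1 belonged to the 14.5% that were called higher at the TES and not called at the TSS. Ifit2 was among the 6.52% called at neither end. G3bp1 was 1 of 17 genes (0.613%) called lower at both ends. These shares describe how common each pattern was in the same libraries.

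The starts of Dhx58 and Trex1 differ from those of the other 5 genes in their surroundings. Kat2a, a histone acetyltransferase gene on the same strand, ends 475 bp upstream of the Dhx58 start. The coding transcript Atrip-201, of the ATR-interacting protein gene, ends 13 bp upstream of the outermost Trex1 start, and the whole of Trex1 lies within the annotated span of Atrip on the same strand. No end of a coding transcript of another gene was found within 1 kb on either side of the start of Adar, Zc3hav1, Ifit2, Mre11a or G3bp1, on either strand. Atrip and Kat2a were not analysed here.

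**Figure D4:**
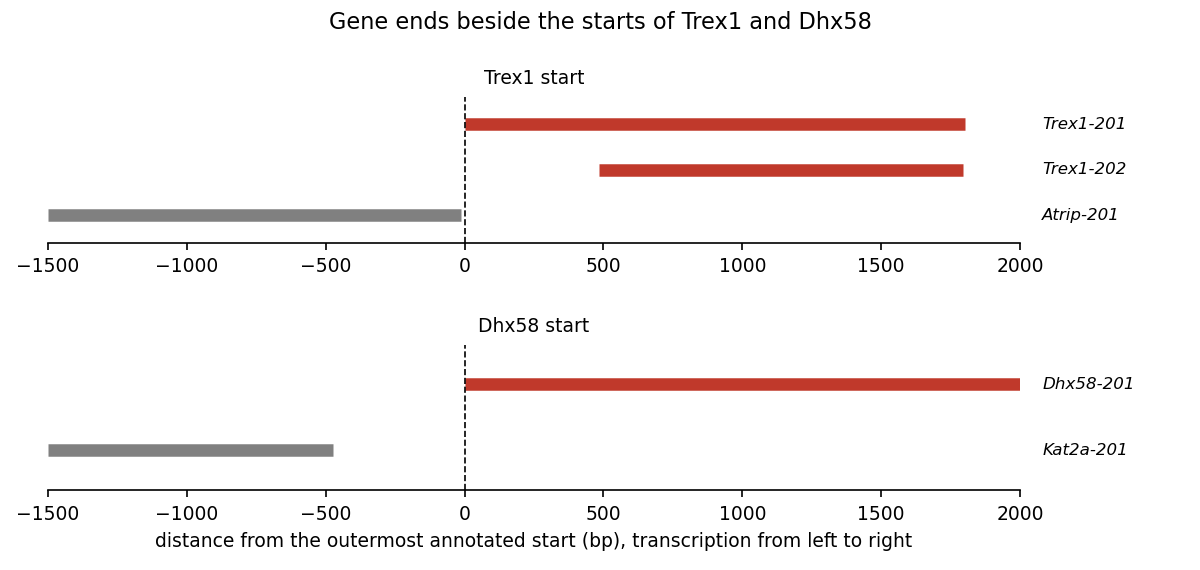
Coding transcripts around the outermost annotated starts of Trex1 (top) and Dhx58 (bottom), drawn to scale by distance from the start in bp, with transcription from left to right; bars are whole transcripts cut at the edges of the plot, with introns not drawn. Red bars are transcripts of the named gene and grey bars those of Atrip and Kat2a, which end 13 bp (Atrip-201) and 475 bp (Kat2a-201) before the start.

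Starts of this kind had a higher median TSS ratio than other starts, but not all were high and many high ratios lay elsewhere. In control cells 67 of the 165 genes with such a start (40.6%) had a TSS ratio above that of Trex1. Of the 2901 genes without one, 113 did (3.90%). In the 165 genes for which a coding transcript of another gene ends within 1 kb upstream on the same strand, the median TSS ratio was 2.01 in Carm1 KO cells and 0.752 in control cells. In the 2901 genes with no such end it was 0.154 in Carm1 KO cells and 0.0772 in control cells. The median TES ratio was 1.24 times the TSS ratio in Carm1 KO cells and 1.47 times in control cells for the 165 genes, against 17.9 times in Carm1 KO cells and 23.2 times in control cells for the rest. Within the 165 genes Dhx58 was at percentile 76.4 in Carm1 KO cells and 80.6 in control cells, and Trex1 at 75.8 in Carm1 KO cells and 60.0 in control cells, so neither was extreme. Their changes were at percentile 37.5 and 66.9 among the 160 of those genes with a fold, whose median change was 1.36. TSS signal of Dhx58 and Trex1 cannot be told apart from signal of Kat2a and Atrip in these tables. The same holds for TES signal of Trex1 and Atrip, whose annotated spans end at the same base. Gene length gave a smaller contrast in the TSS ratio. The 164 genes of up to 2 kb had a median of 0.216 in Carm1 KO cells and 0.120 in control cells. For the 2902 longer genes it was 0.160 in Carm1 KO cells and 0.0791 in control cells. The TES ratio of the short genes was a median of 3.02 times the TSS ratio in Carm1 KO cells and 3.82 times in control cells. For the longer genes it was 17.7 times in Carm1 KO cells and 23.0 times in control cells. Trex1 is among the short genes and Dhx58 is not.

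**Figure D5:**
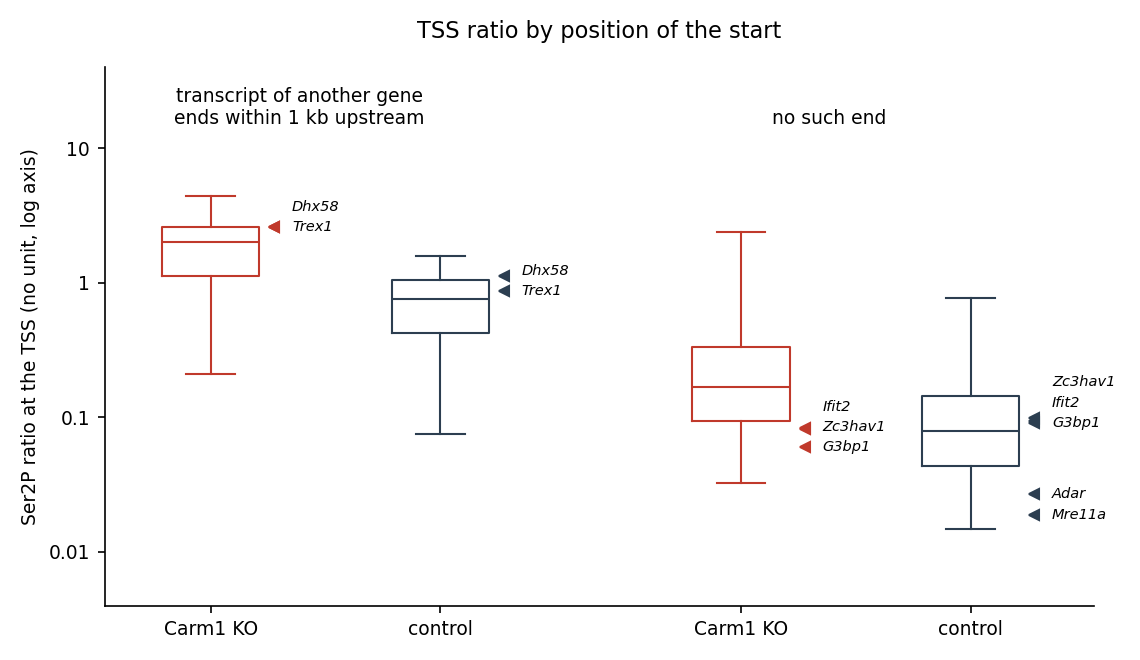
TSS Ser2P ratio (log axis, no unit) in Carm1 KO (red) and control cells (dark) for genes with the end of another gene's coding transcript within 1 kb upstream on the same strand and for genes with none, values above 0 only. Boxes span the quartiles with a line at the median, whiskers reach from the 5th to the 95th percentile, and triangles are the genes described here; Dhx58 and Trex1 lie above the median of the first class and far above that of the second.

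At the TES, change varied with gene length, mainly among the longer genes. In 10 groups of near equal size, numbered from the shortest genes, the median change was 0.86 to 1.04 in groups 1 to 6. Trex1 falls in group 1 (median 0.86) and Dhx58 in group 4 (1.04), and they lay 0.83 and 0.12 above these medians. Ifit2 falls in group 7, where the median change was 0.84, and Adar and G3bp1 in group 8, where it was 0.67. Mre11a and Zc3hav1 fall in group 9, from 47814 to 77014 bp, where the median was 0.21. In group 10 it was -0.09. Relative to genes of like length, the change of Zc3hav1 was therefore larger than relative to all genes, at 1.26 above the median of its group. The change of Mre11a lay 0.23 above the median of its length group, although it lay 0.40 below that of all genes.

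Beyond these 7 genes, 8 lists of related genes held 57 further genes with a value. At the TSS 40 of the 56 with a fold were called higher (71.4%, against 71.2% of all genes) and 3 lower (5.36%, against 5.6%), with a median change of 0.96, against 1.17 for all genes. At the TES 35 of 56 were called higher (62.5%, against 66.7% of all genes) and 3 lower (5.36%, against 7.13%), with a median of 0.85, equal to that of all genes at this rounding. The 3 called lower at the TSS were Dhx36 (-1.96), Rel (-0.97) and Map3k7 (-0.64), and at the TES Prkdc (-2.37), Fmr1 (-0.97) and Dhx36 (-0.64). Both shares were thus near those of all genes. Counts of single lists in what follows include those of the 7 genes that belong to them, and are to be read against the same all-gene shares.

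Of 41 symbols for RNA sensing and RIG-I-like receptor signalling, 10 were listed. At the TSS 6 were called higher (60%, against 71.2% of all genes) and 1 lower (10%, against 5.6%), with a median of 0.79. At the TES again 6 were higher (60%, against 66.7%) and 1 lower (10%, against 7.13%), with a median of 0.91. Mavs, the mitochondrial adaptor on which RIG-I-like receptors converge, had a TSS ratio of 0.0584 in Carm1 KO cells and 0.0695 in control cells, at percentile 9.41 of changes. Its TES ratio was 2.87 in Carm1 KO cells and 1.42 in control cells, a log2 change of 1.02. Mavs was thus higher at its end and not called at its start, like Zc3hav1. Dhx36, a helicase of G-quadruplexes that has been reported as an RNA sensor, was the only other gene of all these lists called lower at both ends, along with G3bp1. Its TSS ratio was 0.0249 in Carm1 KO cells and 0.0964 in control cells, and its TES ratio was 2.23 in Carm1 KO cells and 3.48 in control cells.

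Ticam1, which encodes the adaptor TRIF of Toll-like receptor signalling, changed by 1.90 at the TSS, with a ratio of 2.95 in Carm1 KO cells and 0.789 in control cells. The RNA helicase gene Dhx9, whose product unwinds double-stranded RNA, changed by 1.78 there. A coding transcript of Plin3 ends 690 bp upstream of the Ticam1 start on the same strand. Tomm70a, the mitochondrial import receptor gene, was called at neither end (-0.28 and -0.13). Ddx1 had the largest TES change among the other genes of the list, 1.08.

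Among 85 symbols of interferon-stimulated effectors 8 were listed, 5 of them among the 7 genes. At the TSS 5 of 7 with a fold were called higher (71.4%, against 71.2% of all genes) and 0 lower, and at the TES 7 of 8 were called higher (87.5%, against 66.7% of all genes) and 0 lower. The lone gene not called higher at the TES was Ifit2. The other 3 rose at both ends by the threshold. Isg20, an RNA exonuclease gene, changed by 1.05 at the TSS and 1.35 at the TES. The helicase gene Znfx1 changed by 1.52 and 1.25, and the phospholipid scramblase gene Plscr1 by 1.37 and 1.14. With 8 genes the list median at the TES, 1.20, is a description of these genes only.

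In the list for editing, binding and decay of double-stranded RNA, 10 of 41 symbols were listed. At the TES 9 were called higher (90%, against 66.7% of all genes) and 0 lower, with a median of 1.12. At the TSS 6 of 8 with a fold were higher (75%, against 71.2%) and 0 lower, with a median of 1.29. The helicase gene Dhx30 changed by 2.66 at the TSS, where its control ratio was low, at 0.0278, and by 1.45 at the TES. Zc3hav1l, a paralogue of Zc3hav1, had a TSS ratio of 0.805 in Carm1 KO cells and 0.140 in control cells, a change of 2.52, where Zc3hav1 itself had -0.27. At the TES Zc3hav1l changed by 0.83, less than Zc3hav1. Drosha, the nuclease gene of microRNA processing, changed by 1.35 at the TES. At the TSS it was listed at 0 in Carm1 KO cells and at 0.0254 in control cells, and no fold was computed. Among the genes outside the 7 with a fold at the TSS, Supv3l1 (0.35) and Dgcr8 (0.83) had the smallest changes. Supv3l1 is a helicase gene of mitochondrial RNA decay and Dgcr8 a microprocessor gene.

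Of 38 symbols for DNA sensing and clearance of nucleic acids, 8 were listed. At the TSS 6 of 7 with a fold were called higher (85.7%, against 71.2% of all genes) and 1, G3bp1, lower, with a median of 0.78. At the TES 4 were called higher (50%, against 66.7%) and 2 lower (25%, against 7.13%), with a median of 0.52. Rad50, the partner of Mre11a, had a TSS ratio of 0.379 in Carm1 KO cells and 0.0828 in control cells, a change of 2.19 at percentile 82.5, whereas Mre11a was listed at 0 in Carm1 KO cells. At the TES Rad50 changed by 0.60, with a ratio of 5.35 in Carm1 KO cells and 3.54 in control cells, similar in size to the 0.45 of Mre11a. The chromatin proteins Hmgb1 and Hmgb2, which also bind DNA in the cytosol, changed by 0.81 and 0.63 at the TSS and by 1.07 and 0.82 at the TES. Prkdc, of the DNA-dependent protein kinase, changed by 0.75 at the TSS and by -2.37 at the TES. Prkdc and G3bp1 were the 2 genes of this list called lower at the TES. Xrcc5, the DNA-binding partner of Prkdc, changed by 0.16 there.

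The list around the MRE11-RAD50-NBS1 complex and double-strand breaks held 11 of 29 symbols. At the TSS 6 of 10 with a fold were called higher (60%, against 71.2% of all genes) and 0 lower, with a median of 1.08. At the TES 5 of 10 were higher (50%, against 66.7%) and 0 lower, with a median of 0.54. Brca2, of homologous recombination, changed by 3.06 at the TSS, whereas Bard1, the partner of Brca1, had -0.48 and Mdc1 0.41 there. The control TSS ratio was low for Brca2, at 0.0230, and for Bard1, at 0.0322. At the TES the adaptor gene Mdc1 and the ubiquitin ligase gene Rnf168 each changed by 1.27, while the helicase gene Blm had 0.04 and the checkpoint kinase gene Chek1 0.20.

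Stress granule proteins, the group of G3bp1, were the best covered, with 17 of 29 symbols. At the TSS 11 were called higher (64.7%, against 71.2% of all genes) and 1 lower (5.88%, against 5.6%), with a median of 0.99. At the TES 9 were called higher (52.9%, against 66.7%) and 2 lower (11.8%, against 7.13%), with a median of 0.64. G3bp1 was the gene called lower at the TSS, and G3bp1 and Fmr1 were those at the TES. Tial1 changed by 4.63 at the TSS, with a ratio of 0.146 in Carm1 KO cells and 0.00588 in control cells. That control ratio is below the lowest Carm1 KO TSS ratio above 0, 0.00597, so the size of this change is uncertain. Tia1, the paralogue of Tial1, had -0.35 at the TSS and 1.20 at the TES. Fmr1, the gene of the fragile X protein, changed by 2.67 at the TSS and by -0.97 at the TES, in opposite directions. Its control TSS ratio was low, at 0.0159. Nufip2, whose product binds RNA, had -0.38 at the TSS. Ybx1, of the cold shock domain proteins, changed by 1.52 at the TES and Prrc2c had -0.37.

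Of 42 symbols in the list around kinases and transcription factors of interferon induction, 6 were listed, not all of them genes of either kind. At the TSS 4 were called higher (66.7%, against 71.2% of all genes) and 2 lower (33.3%, against 5.6%), with a median of 1.06. At the TES 4 were higher (66.7%, as for all genes) and 0 lower, with a median of 0.70. Tab1, of the kinase complex around TAK1, changed by 3.40 at the TSS and 1.05 at the TES. Irf2bpl changed by 3.37 at the TSS, where its control ratio was low, at 0.0313. The IκB kinase gene Chuk was called higher at the TES. Map3k7, which encodes TAK1 itself, and Rel, an NF-κB subunit gene, lay below 0 at both ends and had -0.20 and -0.11 at the TES. Of 26 symbols for interferon receptors and JAK-STAT signalling only the phosphatase genes Ptpn6 and Ptpn11 were listed. Ptpn6 changed by 2.25 at the TSS and 1.52 at the TES, and Ptpn11 by 2.21 and -0.52. A coding transcript of Grcc10 ends 469 bp upstream of the Ptpn6 start.

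Genes with the most similar values to each of the 5 genes above 0 in all 4 values were found by Euclidean distance over the 4 log2 ratios among the 2775 genes. Zfp457 (distance 0.167) and Abcf3 (0.203) were nearest to Dhx58, and the nearest to Trex1 were 1700029I15Rik (0.284) and Nat14 (0.303). Ints13 (0.309) and Sgpl1 (0.312) were nearest to Ifit2. Mettl16 (0.355) and Ints13 (0.473) were nearest to G3bp1. Pfkp (0.433) and Bcl2l13 (0.562) were nearest to Zc3hav1. Among the 5 genes themselves, Dhx58 and Trex1 lay 0.592 apart and Ifit2 and G3bp1 0.602 apart, whereas every other pair was at least 2.39 apart. Zc3hav1 stood apart from both pairs, with 2.39 to Ifit2 as its shortest distance.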

How the data were processed

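Each deposited table holds, per the file headers, a Ser2 fraction for Carm1 KO and for control cells and their difference. The values pass 1, reaching 38.9 in Carm1 KO and 36.0 in control cells, and are handled here as ratios on a linear scale, made by the authors. The deposited difference, another value of the authors, equalled Carm1 KO minus control in every row within 9.8e-14 and was not used further. The submitters' processing notes name cutadapt 1.18, TopHat2 2.1.1 and mm10 (GRCm38). No source used here says which windows were used, how libraries were scaled, whether strand was used or how genes were chosen. The column named for B16 was read as the control and that named KO as Carm1 KO, and 0 columns belonged to other samples.

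Changes are log2 of the Carm1 KO ratio over the control ratio, without a pseudocount, and were called at 1.5-fold. Genes at 0 in either genotype got no fold. No low-value filter and no statistical test were applied, and the calling step alone was checked on simulated data. Of 3117 symbols, 3071 matched a GENCODE M21 gene name when case was ignored. Percentiles rank a gene among all genes of its table. Named genes were the 7 genes, the 2 largest and 2 smallest changes of each of 8 lists at each end, listed partners of the 7 genes, and the 2 nearest genes of each. A result that this rule names is not reported here. Atrip, Kat2a, Ankrd49, Chrnb2, Plin3 and Grcc10 were named after the values were seen, for their positions. The members and lists were chosen with earlier results of these data known. Computation used Python 3.11.15, pandas 2.3.3 and NumPy 2.4.6.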

Additional observations from a re-analysis of the deposited data

How the results depend on the processing

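No paired analysis was possible because each group has 1 library, and for the same reason no library could be left out. Values were taken as moved when they shifted by 1.5-fold or more, since no spread exists. Subtracting the median of all genes, of genes of like ratio (level) or of like length left 0 genes called higher and 3 called lower at the TSS under each, and 2 higher and 2 lower at the TES under each. The median change of the genes at the TSS became -1.32, -0.97 and -1.37, and at the TES -0.069, -0.076 and 0.12, in that order. The sign of the TES median thus turned under the first and second, as did that of Adar, the median gene there (-0.069 and -0.076). Dhx58 at the TSS turned to -0.30 with genes of like level. A 2-fold threshold left 0 genes called lower at either end. A pseudocount of 0.0206 at the TSS and 0.661 at the TES, which keeps the genes at 0, gave 2 called lower at the TSS and 0 at the TES. The 2 were Adar (-1.21) and Mre11a (-0.94), values that rest on the pseudocount, and G3bp1 was then called at neither end (-0.47 at the TSS and -0.54 at the TES). Keeping only genes listed in both tables left the main counts and medians as they were. That outcome was fixed in advance, because all 7 genes are in both tables and nothing was subtracted. These shifts follow from the subtraction, the threshold or the added constant itself. After subtraction of the all-gene median, 28.6% of all genes were called higher and 28.8% lower at the TSS. At the TES these shares were 11.6% and 22%. Shares of all genes were not computed for like level, like length, the 2-fold threshold or the pseudocount. Whether the counts under those settings are unusual is therefore not known. Depth is unknown, and low TSS ratios are the coarsest values.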
